A study of Mus musculus with 12 samples.

Results

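The liver makes most of the complement and clotting proteins of the blood, and a set of 35 genes for such hepatocyte-secreted factors was followed in livers with and without the copper transporter Atp7b. Membership came from what the proteins are known to do, and 33 of the 35 genes were measured, of 18193 genes with a probe set of their own in the series. The other 2 are not analysed here: C3 had no probe set listed with it alone, and the 1 probe set of C4b is shared with C4a. No filter on low values was applied, so all 33 enter every count below. Of these, 26 were read from a single probe set and 7 from the brightest of several.

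RNA of whole liver from mice aged 3 months was hybridised to 12 Affymetrix GeneChip Mouse 430 2.0 arrays. On such an array a probe set, made of several short probes, reads 1 transcript or a few related ones. The groups, of 4 arrays each, were Atp7b-/- mice treated with zinc, Atp7b-/- mice without treatment and untreated wild type mice, all of the strain C57Bl/6. Atp7b is the copper ATPase that hepatocytes use to load copper into ceruloplasmin and to pass it into bile, and zinc lowers copper uptake from the gut. The sources used here give no zinc dose, route or duration, and do not describe how the Atp7b allele was made. The labels name separate mice for the zinc-treated arrays alone, so p-values rest on array-to-array spread, and some of that spread may be technical. Levels are log2 intensities as deposited, and a difference of 1 stands for a factor of 2. A gene was called changed where limma's moderated test gave a Benjamini-Hochberg adjusted p under 0.05 over all 18193 genes. In a whole-tissue sample, fewer cells of a type and less RNA per cell cannot be told apart.

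Complement is a cascade of plasma proteins that marks and lyses microbes. In its lectin pathway, mannose-binding lectins recognise sugars on a surface and their partner proteases cleave C4 and C2, after which the convertases of C3 and C5 form and the terminal proteins assemble a pore in the membrane. Clotting runs through a chain of serine proteases to thrombin, which turns fibrinogen into fibrin, and it is held back by protein C, protein S and the serpins. The contact system, made of factor XII, prekallikrein and kininogen, can start the clotting chain and also releases the peptide bradykinin.

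The promoters of 4 genes on which the results below turn are shown here, as the RefSeq bases of build GRCm38.p6 that lie before the transcription start, each from 5′ to 3′ on the strand of its gene. Mbl2 (chr19:30232678-30232905, plus strand) was the member with the largest change, and Mbl1 (chr14:41151206-41151455, plus strand) is its nearest relative and changed the other way. Capitals in these 2 sequences mark the highest-scoring ungapped stretch that they share, 45 bases with 38 identical (84.4%), which lies 63 to 19 bases before the annotated gene start of Mbl2 and 51 to 7 bases before that of Mbl1. F12 (chr13:55426805-55427054, minus strand) was higher in untreated mutants and lower again with zinc. C8b (chr4:104766067-104766316, plus strand) was lower in both groups of mutants. Capitals in C8b mark TGCACTC, a match to the core of a metal response element, and ATTAAC, a match to the HNF1 core motif on the other strand, while F12 held no match to any motif searched and is all in lower case.
Mbl2: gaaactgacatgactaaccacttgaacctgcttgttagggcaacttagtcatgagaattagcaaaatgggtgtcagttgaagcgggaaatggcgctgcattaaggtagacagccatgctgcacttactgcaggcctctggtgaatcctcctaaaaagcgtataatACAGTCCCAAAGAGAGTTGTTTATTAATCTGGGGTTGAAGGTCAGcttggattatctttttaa
Mbl1: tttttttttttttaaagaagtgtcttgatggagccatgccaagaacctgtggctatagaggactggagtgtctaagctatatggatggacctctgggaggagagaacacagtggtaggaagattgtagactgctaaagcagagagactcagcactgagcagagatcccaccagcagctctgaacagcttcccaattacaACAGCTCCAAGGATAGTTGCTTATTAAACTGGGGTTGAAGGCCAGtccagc
F12: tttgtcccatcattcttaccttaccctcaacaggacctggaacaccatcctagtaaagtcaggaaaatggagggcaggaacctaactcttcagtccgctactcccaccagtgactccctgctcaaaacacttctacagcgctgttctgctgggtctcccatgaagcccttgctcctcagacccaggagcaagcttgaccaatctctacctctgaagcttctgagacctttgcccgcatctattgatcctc
C8b: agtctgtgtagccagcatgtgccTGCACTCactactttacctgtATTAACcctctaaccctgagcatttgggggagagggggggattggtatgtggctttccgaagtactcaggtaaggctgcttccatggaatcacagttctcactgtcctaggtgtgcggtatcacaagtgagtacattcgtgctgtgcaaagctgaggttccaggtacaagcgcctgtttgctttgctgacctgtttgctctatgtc

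A promoter was found in RefSeq for 26 of the 33 measured members, and 7 motifs were searched on both strands in the 250 bases before the first start listed for each gene. The core motif of HNF1, a hepatocyte transcription factor, written GTTAAT, was present in 7 of the 26 promoters (26.9%), those of C4bp, C8a, C8b, F13b, Fga, Fgb and Vtn, against 6.52% of 27025 promoters of all genes. The C/EBP motif TTNNGCAA was present in 6 (23.1%; C9, F11, F9, Fga, Fgb and Klkb1) against 9.55%. The STAT motif TTCNNNGAA was also present in 6 (23.1%; C8a, F9, Fga, Fgb, Masp2 and Pros1) against 7.18%. The metal response element was searched as TGCGCNC, found in Fgg alone (3.85% against 12.6%), and as TGCACNC, found in C8b and C8g (7.69% against 10.2%). The TATA box TATAAA was found in Klkb1 and Vtn (7.69% against 13%). The HNF4 core CAAAGTCCA was found in 0 of 26, against 0.381% of all promoters. Matches of different motifs overlapped in 0 places among the members. A match describes the letters of the window, and no test was made on these shares.

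The members were among the brightest genes of the liver. All 33 lay above the median gene and 32 above the 90th percentile, the exception being Pros1 at percentile 83.7. Mean log2 levels of the members ran from 9.43 to 14.31, on arrays whose highest values were 15.18 to 15.24. Fgg alone had a group mean within 1 log2 unit of the array maximum, 0.87 away, and Plg and Serpinc1 came next, at 1.12 and 1.13. Differences between replicates were small, with a median SD over the members of 0.09 in zinc-treated, 0.10 in untreated Atp7b-/- and 0.09 in wild type livers.

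The hepatocyte markers of the liver averaged 14.19 to 14.31 over 5 measured genes on every array, and of these Hnf4a alone was called, lower by 0.25 in untreated mutants (adjusted p = 0.0233). Atp7b had log2 levels of 6.85, 6.92, 6.57 and 6.98 in zinc-treated and 7.17, 7.25, 7.11 and 6.91 in untreated Atp7b-/- livers, against 8.51, 8.59, 8.61 and 8.69 in wild type. The position of its probes against the targeted exons is not stated, so this check is limited. Of the arrays, 3 stood apart. Zinc-treated replicates 2 and 3 carried pancreatic acinar transcripts, with a mean of 9.95 and 7.36 over 8 markers, where the other 10 arrays lay between 5.86 and 6.23. Untreated Atp7b-/- replicate 1 stood apart mainly within its own group, where its median r was 0.991 and that of replicates 2, 3 and 4 was 0.995. Median r within the zinc-treated group was 0.992 to 0.993, and so it was within wild type. Replicate 1 thus lay only slightly below the arrays of those groups. The 3′ minus 5′ signal of the actin and Gapdh controls, which grows as RNA degrades, averaged 0.54 to 0.74 in zinc-treated arrays and 0.79 to 0.88 in untreated Atp7b-/- arrays, against 0.62 to 0.78 in wild type, so in comparisons with the untreated mutants it cannot be told apart from group.

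The comparison of untreated Atp7b-/- with wild type livers asks what loss of the transporter did to these factors. Mbl2, a mannose-binding lectin, stood 2.50-fold higher in the mutants, F12, Pros1 and F13b rose by smaller amounts, and 3 terminal complement genes (C6, C8a and C8b), Mbl1 and Klkb1 fell. The proteases of the clotting chain, fibrinogen, plasminogen and antithrombin gave no call. In all, 9 of 33 members (27.3%) were called, where 24.6% of all genes were, so the number of changed members was near that of the genome at large. By direction, 4 members (12.1%) were higher, against 14.3% of all genes, and 5 (15.2%) were lower, against 10.3%. The median change over the 33 members was -0.02, beside -0.05 over all genes, and the median size of change was 0.13, beside 0.17. The count of higher members was 2 without untreated replicate 4 or wild type replicate 1, and that of lower members was 3 without untreated replicate 1 or 2 or wild type replicate 2, 3 or 4.

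**Figure D1:**
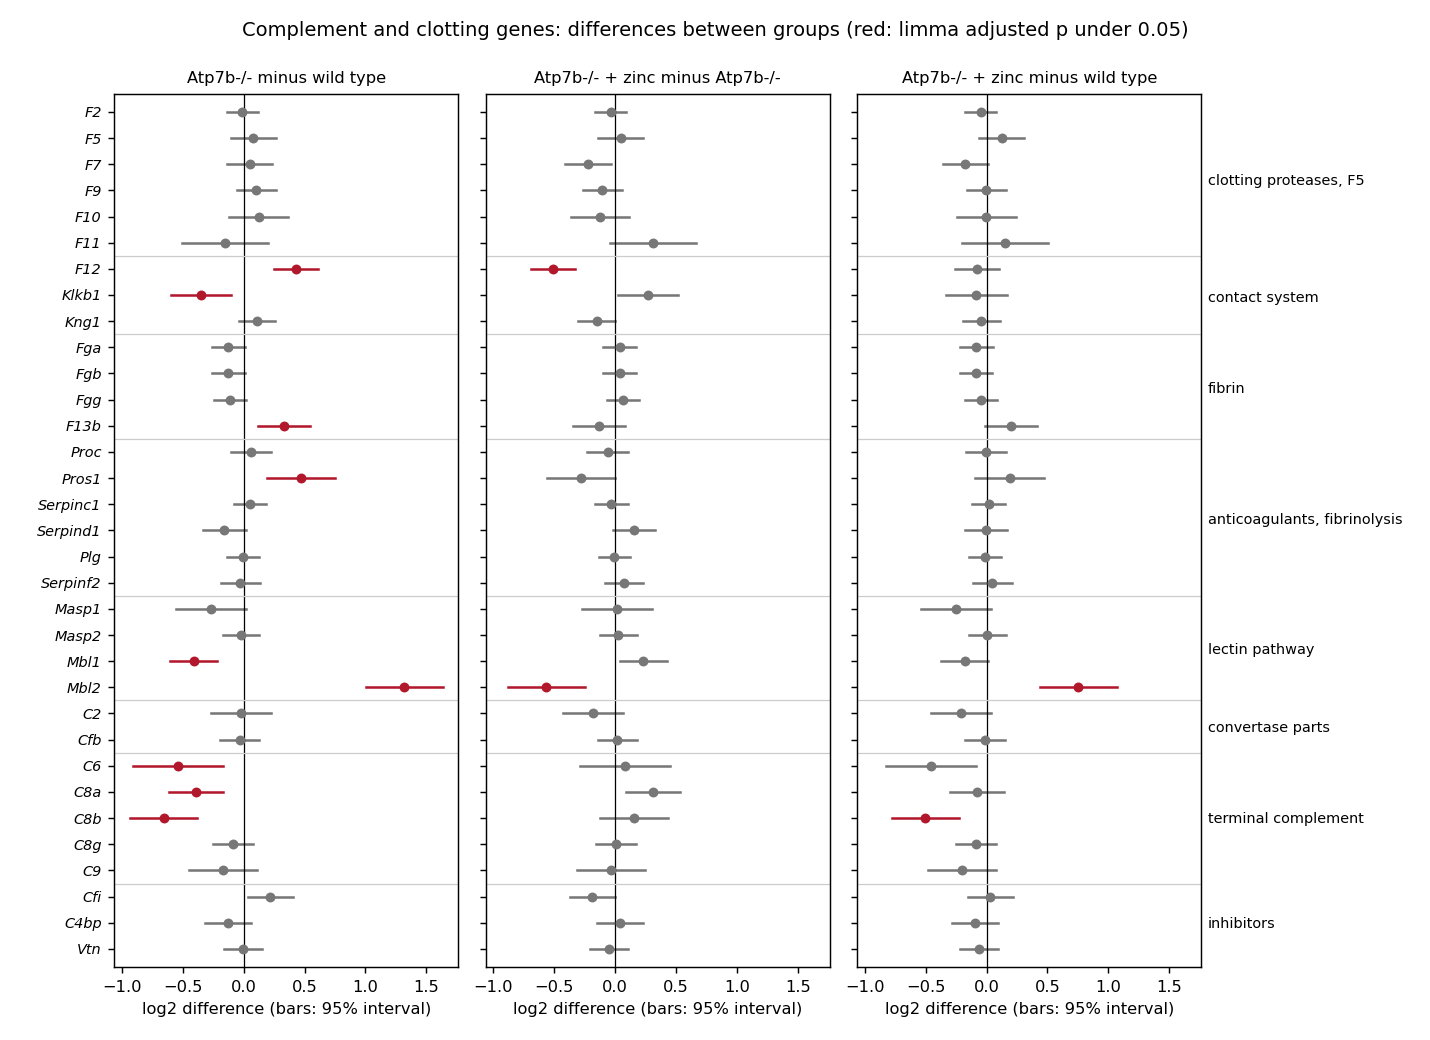
Difference in log2 level of each of the 33 measured genes (points) with its 95% interval (bars) in the 3 comparisons, in rows ordered by role and with called genes in red. Mbl2 is farthest from 0 in untreated Atp7b-/- minus wild type, at 1.32, and the clotting proteases of the top block lie between -0.15 and 0.12 there.

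Among the 4 lectin pathway genes Mbl2 rose and Mbl1 fell, and neither protease gene was called. Mouse liver makes 2 mannose-binding lectins, MBL-A from Mbl1 and MBL-C from Mbl2, which bind sugars on microbes and on dying cells. Mbl2 (gene 17195, chromosome 19, 30232906 to 30239687) had log2 levels of 13.18, 13.62, 13.31 and 13.05 in zinc-treated and 14.16, 13.86, 13.65 and 13.75 in untreated Atp7b-/- livers, against 12.39, 12.87, 12.39 and 12.49 in wild type. Every untreated mutant array lay above every other array, and the zinc-treated arrays lay between both other groups without overlap. The untreated mutants exceeded wild type by 1.32 (SE 0.15; adjusted p = 2.4e-05), and Mbl2 was called under each of 24 alternative settings of the analysis, with changes of 1.22 to 1.43. Without untreated replicate 1, the array that stands apart, the difference was 1.22 (adjusted p = 6.5e-05).

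Mbl1 (gene 17194, chromosome 14, 41151456 to 41163904) had log2 levels of 11.74, 11.72, 11.62 and 11.66 in zinc-treated and 11.32, 11.43, 11.58 and 11.49 in untreated Atp7b-/- livers, against 11.67, 12.09, 11.87 and 11.84 in wild type. Here the untreated mutants were lowest, with no array as high as the lowest wild type or zinc-treated array. The change against wild type was -0.41 (SE 0.09; adjusted p = 0.00507), or 0.753 of the wild type level. The mean of 9 acute phase genes, a group to which mannose-binding lectin is often counted, was 10.25, 11.13, 10.65 and 10.27 in zinc-treated and 11.65, 11.15, 11.01 and 10.85 in untreated Atp7b-/- arrays, against 11.02, 12.94, 11.92 and 10.36 in wild type. Mbl2 and Mbl1 were each highest, within wild type, on the array with the highest acute phase mean, and the part of that response in the lectin values was not tested. Of the 9 acute phase genes 0 were called higher and 1, Crp, was called lower (0 and 3 at an unadjusted p under 0.05 in limma). Of all 18193 genes 14.3% were called higher and 10.3% lower, and 3469 were higher and 3451 lower at that unadjusted p.

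The proteases that travel with the lectins, Masp1 and Masp2, were not called by their brightest probe sets. Masp1 differed by -0.27 (adjusted p = 0.158), and all of its 5 probe sets gave negative differences, from -0.13 to -0.27. In this gene the lowest value was that of untreated mutant replicate 1, at 10.61, and the other 3 untreated arrays lay between 11.12 and 11.35.

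For Masp2 (gene 17175, chromosome 4, 148594622 to 148615499) the answer depended on the probe set. The brighter one differed by -0.02 between untreated mutants and wild type, and its arrays overlapped throughout. The dimmer one had log2 levels of 10.46, 10.50, 10.48 and 10.42 in zinc-treated and 10.51, 10.53, 10.55 and 10.55 in untreated Atp7b-/- livers, against 10.02, 10.09, 10.17 and 10.12 in wild type. All 8 mutant arrays lay above all 4 wild type arrays. In a limma fit of 34945 probe sets the dimmer one was higher by 0.43 in untreated mutants (adjusted p = 0.000365) and by 0.37 in zinc-treated ones (adjusted p = 0.00404), with -0.07 between them (adjusted p = 0.627). Masp2 is known to give a long transcript for the protease and a short one for the protein MAp19. Which transcripts each probe set reads is not given in the files.

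**Figure D2:**
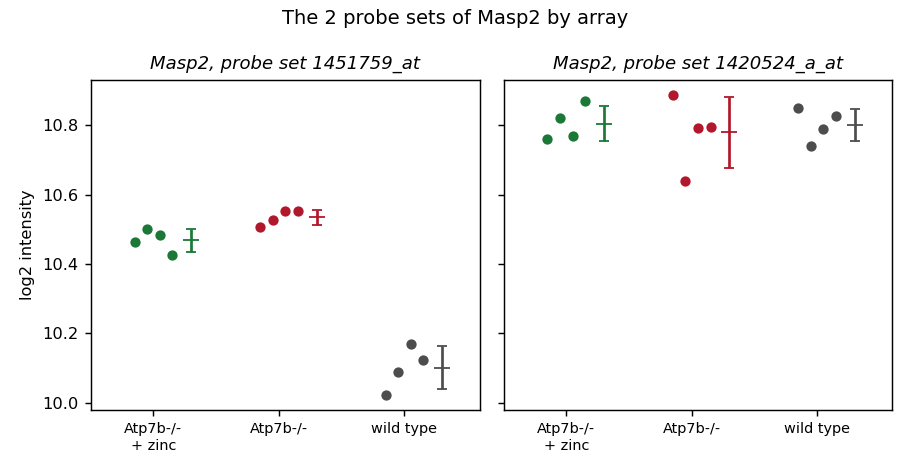
Log2 intensity of both probe sets of Masp2 on every array (points), with the mean and SD of each group of 4 (bars). On the left, the dimmer probe set lies between 10.42 and 10.55 in both mutant groups and between 10.02 and 10.17 in wild type, and on the right the groups of the brighter probe set overlap.

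Of the 5 measured genes of the terminal membrane attack complex 3 fell (60%; C6, C8a and C8b), against 10.3% of all genes, and this share was not tested. The other 2 (C8g and C9) were not called, and the median over the 5 was -0.39. C8b (gene 110382, chromosome 4, 104766317 to 104804548), the β chain of C8, had log2 levels of 11.61, 12.04, 11.74 and 11.43 in zinc-treated and 11.42, 11.54, 11.66 and 11.59 in untreated Atp7b-/- livers, against 12.19, 12.32, 12.39 and 11.93 in wild type. All untreated arrays lay below all wild type arrays, while zinc-treated replicate 2 reached above the lowest of wild type. The change in untreated mutants was -0.66 (SE 0.13; adjusted p = 0.0023), or 0.634 of the wild type level, and -0.61 without untreated replicate 1 (adjusted p = 0.00728).

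C8a (gene 230558), the α chain, lies beside C8b on chromosome 4 (104815679 to 104876487). Its log2 levels were 13.26, 13.52, 13.46 and 13.27 in zinc-treated and 12.82, 13.10, 13.28 and 13.08 in untreated Atp7b-/- livers, against 13.36, 13.62, 13.47 and 13.39 in wild type. The untreated arrays were again below all wild type arrays, with a change of -0.39 (SE 0.10; adjusted p = 0.0149), or -0.31 without untreated replicate 1 (adjusted p = 0.0379). The third chain, C8g, is encoded on chromosome 2 and differed by -0.09 (adjusted p = 0.399).

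C6 (gene 12274, chromosome 15, 4727067 to 4804045), which joins the complex before C8, had log2 levels of 11.40, 11.78, 11.78 and 10.82 in zinc-treated and 11.19, 11.36, 11.53 and 11.37 in untreated Atp7b-/- livers, against 11.80, 12.02, 11.92 and 11.87 in wild type. Neither mutant group reached the lowest wild type array, and the zinc-treated arrays spread the most. The change in untreated mutants was -0.54 (SE 0.17; adjusted p = 0.0353). This call was lost when untreated replicate 1, 2 or 4, or any of the 4 wild type replicates, was left out, with changes of -0.58 to -0.48 and adjusted p between 0.0536 and 0.0804. C9, which forms the wall of the pore, differed by -0.17 (adjusted p = 0.365), with 13.75, 13.60, 13.64 and 13.55 in untreated Atp7b-/- livers against 13.84, 13.87, 13.92 and 13.58 in wild type. In the zinc-treated group C6, C8a, C8b and C9 were each higher on replicates 2 and 3, the arrays with pancreatic transcripts, than on replicates 1 and 4.

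**Figure D3:**
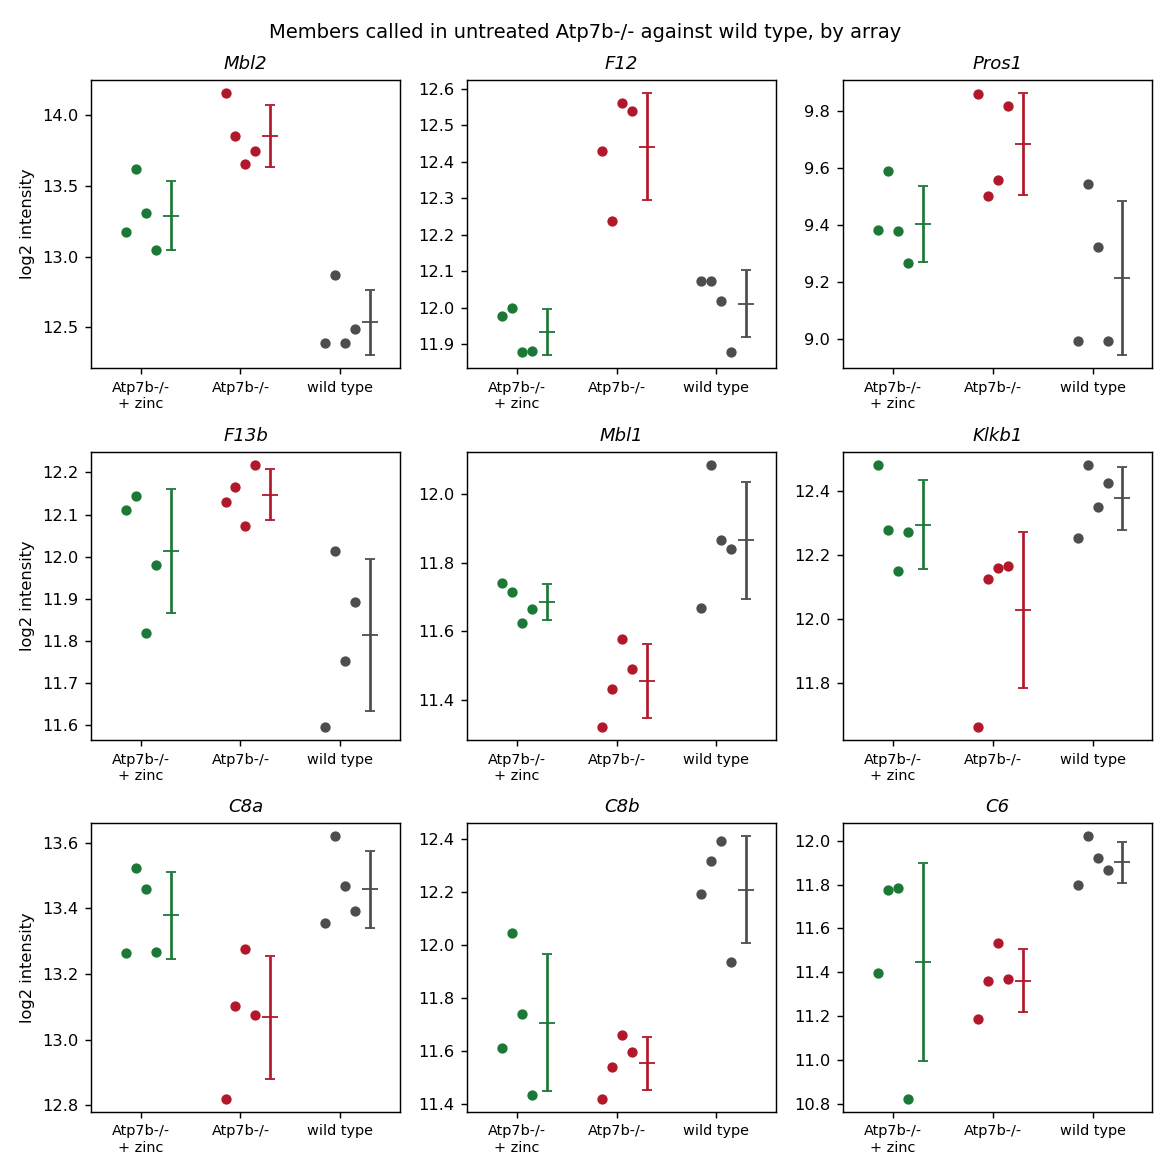
Log2 intensity of the 9 members called in untreated Atp7b-/- against wild type, on every array (points), with the mean and SD of each group of 4 (bars) and an own scale for each gene. Zinc-treated arrays of Mbl2 lie between the other groups, those of F12 lie at the level of wild type, and those of C6 and C8b stay low or spread widely.

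The other complement members changed less. The C3 and C5 convertase parts C2 and Cfb, neighbours on chromosome 17, differed by -0.02 and -0.03 and gave no call (0 of 2 also at an unadjusted p under 0.05 in limma). Of the plasma inhibitors, Cfi, the protease that cleaves C3b and C4b, had 13.54, 13.57, 13.56 and 13.44 in zinc-treated and 13.96, 13.63, 13.57 and 13.70 in untreated Atp7b-/- livers, against 13.54, 13.53, 13.48 and 13.44 in wild type. Its untreated mutant arrays lay above all wild type arrays by a narrow margin. The difference of 0.22 missed the threshold (adjusted p = 0.0759) and passed it without untreated replicate 3 (0.27; adjusted p = 0.0489). C4bp, which binds C4b, differed by -0.13 (adjusted p = 0.295) and vitronectin (Vtn), which blocks the terminal complex and binds clotting inhibitors, by -0.01.

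In the contact system 2 of 3 genes were called, 1 each way, where 24.6% of all genes were called. F12 (gene 58992, chromosome 13, 55417958 to 55426804), the protease that starts contact activation, had log2 levels of 11.98, 11.999, 11.88 and 11.88 in zinc-treated and 12.43, 12.24, 12.56 and 12.54 in untreated Atp7b-/- livers, against 12.07, 12.07, 12.02 and 11.88 in wild type. Every untreated mutant array was above every other array, and the remaining groups overlapped. The untreated mutants were higher by 0.43 (SE 0.08; adjusted p = 0.00227), or 1.35-fold.

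Klkb1 (gene 16621, chromosome 8, 45266688 to 45294835), plasma prekallikrein, had log2 levels of 12.48, 12.28, 12.15 and 12.27 in zinc-treated and 11.66, 12.12, 12.16 and 12.17 in untreated Atp7b-/- livers, against 12.25, 12.48, 12.35 and 12.43 in wild type. The untreated arrays lay below wild type, but replicate 1, the array that stands apart, was far below the others. The change of -0.35 (SE 0.12; adjusted p = 0.0408) was -0.23 without that replicate (adjusted p = 0.0857). The call was also lost without untreated replicate 2, zinc-treated replicate 2 or 4, or wild type replicate 2, 3 or 4, with changes of -0.38 to -0.32 and adjusted p between 0.0519 and 0.09. Klkb1 and its neighbour F11, like F7 and F10, lie on chromosome 8 as Atp7b does. F11 had its lowest value, 10.60, on the same untreated replicate 1, where the other 3 were 11.16 to 11.35. Kng1, kininogen, differed by 0.11 (adjusted p = 0.272) by its brighter probe set and by -0.14 (adjusted p = 0.197 over all probe sets) by the other.

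Of the clotting chain genes F2 (prothrombin), F5, F7, F9, F10 and F11, 0 of 6 passed the test in any of the 3 comparisons. Of all genes 24.6% were called in untreated mutants against wild type, 6.54% with zinc against without and 7.62% in zinc-treated against wild type. With 6 genes, 0 calls lie near these shares, and no test was made on them. In untreated mutants against wild type 0 of the 6 also passed an unadjusted p under 0.05 in limma, with differences of -0.15 (F11) to 0.12 (F10). At that unadjusted p, 3469 of all 18193 genes were higher and 3451 lower. For F2 the arrays read 13.74, 13.70, 13.71 and 13.74 in zinc-treated and 13.72, 13.75, 13.79 and 13.78 in untreated Atp7b-/- livers, against 13.79, 13.78, 13.74 and 13.76 in wild type. All 3 groups overlapped, and the 95% interval of the untreated minus wild type difference was -0.14 to 0.12. The probe sets of F10 disagreed in sign, at 0.12 for the brightest and -0.19 and -0.24 for the others, none of them called.

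The fibrinogen chains Fga, Fgb and Fgg, encoded side by side on chromosome 3, differed by -0.13, -0.13 and -0.11 (adjusted p = 0.161, 0.154 and 0.201). Fgg, the brightest member, read 14.30, 14.33, 14.36 and 14.29 in zinc-treated and 14.30, 14.23, 14.20 and 14.28 in untreated Atp7b-/- livers, against 14.35, 14.39, 14.31 and 14.40 in wild type. In each of the 3 chains the untreated mutant arrays lay below all wild type arrays, by margins under the SE of the difference. None of the chains was called, and the share of all genes without such overlap was not counted.

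F13b (gene 14060, chromosome 1, 139501547 to 139523758), the carrier subunit of the enzyme that crosslinks fibrin, had log2 levels of 12.11, 12.14, 11.82 and 11.98 in zinc-treated and 12.13, 12.16, 12.07 and 12.22 in untreated Atp7b-/- livers, against 11.60, 12.01, 11.75 and 11.89 in wild type. Untreated mutants were above wild type on every array, and zinc-treated ones overlapped both. The change was 0.33 (SE 0.10; adjusted p = 0.0258). It missed the threshold without untreated replicate 2 or 4 or wild type replicate 1 or 3, at 0.26 to 0.33 and adjusted p between 0.0558 and 0.0765.

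Among the anticoagulants and fibrinolytic factors 1 of 6 was called, where 24.6% of all genes were. Pros1 (gene 19128, chromosome 16, 62854307 to 62929346), protein S, the cofactor of activated protein C, had log2 levels of 9.38, 9.59, 9.38 and 9.27 in zinc-treated and 9.86, 9.50, 9.56 and 9.82 in untreated Atp7b-/- livers, against 8.995, 9.54, 9.32 and 8.99 in wild type. The groups overlapped, because wild type replicate 2 exceeded the lowest untreated array. The change was 0.47 (SE 0.13; adjusted p = 0.0189), and without untreated replicate 4 or wild type replicate 1 or 4 it was 0.40 to 0.43 with adjusted p between 0.0504 and 0.0599. Other cells of the liver, such as endothelium, also make protein S. Of 6 endothelial markers 3 were lower in untreated mutants than in wild type and 0 higher, against 10.3% and 14.3% of all genes. The part of these markers in the Pros1 value was not tested.

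The remaining members of this role were not called. Protein C (Proc) differed by 0.06, antithrombin (Serpinc1) by 0.05, heparin cofactor II (Serpind1) by -0.16 (adjusted p = 0.167) and α2-antiplasmin (Serpinf2) by -0.03. Plasminogen (Plg) read 14.09, 14.07, 14.09 and 14.11 in zinc-treated and 14.15, 14.07, 14.11 and 14.06 in untreated Atp7b-/- livers, against 14.11, 14.08, 14.15 and 14.08 in wild type. Its groups overlapped. Serpinc1 read 14.04, 14.05, 14.04 and 14.10 in zinc-treated and 14.05, 14.12, 14.06 and 14.12 in untreated Atp7b-/- livers, against 13.97, 14.06, 14.02 and 14.10 in wild type. Here too the groups overlapped. Of the 6 members whose proteins need vitamin K (F2, F7, F9, F10, Proc and Pros1), Pros1 alone was called (16.7%). Of all genes 24.6% were called in untreated mutants against wild type. The share among these 6 members was not tested.

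Zinc-treated and untreated Atp7b-/- livers were compared to see which of these factors zinc moved. F12 and Mbl2 fell with zinc, and no member rose. These 2 calls among 33 (6.06%) stood beside 6.54% of all genes, so the number was again near the background. By direction 2 members (6.06%) were lower, against 4.84% of all genes, and 0 were higher, against 1.7%. At an unadjusted p under 0.05 in limma 4 members were lower and 3 higher, where 2379 of all 18193 genes were lower and 1609 higher. The median difference was 0.01 over the members and 0.01 over all genes, and the median size 0.08 beside 0.12. This comparison shares the untreated arrays with the one above, so a high or low untreated value moves both in opposite directions.

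F12 was lower with zinc by 0.51 on the log2 scale (log2 difference -0.51, SE 0.08; adjusted p = 0.00295), or 0.703 of the untreated level, and by the values given above no zinc-treated array reached the lowest untreated one. Without replicates 2 and 3 of the zinc-treated group the difference was -0.51 (adjusted p = 0.0281). Mbl2 differed by -0.57 (SE 0.15; adjusted p = 0.0355), also without overlap. That call was lost when zinc-treated replicate 1, 3 or 4 or untreated replicate 1, 2 or 4 was left out, with differences of -0.60 to -0.46 and adjusted p between 0.065 and 0.0971. Without the zinc-treated arrays that carried pancreatic transcripts it was -0.74 (adjusted p = 0.0313).

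Several members that differed between untreated mutants and wild type had zinc-treated values between those groups without passing the test. C8a was higher with zinc by 0.31 (SE 0.10; adjusted p = 0.0946), and 0.20 without zinc-treated replicates 2 and 3 (adjusted p = 0.489). Pros1 differed by -0.28 (adjusted p = 0.231), Klkb1 by 0.27 (adjusted p = 0.192) and Mbl1 by 0.23 (adjusted p = 0.149). For Mbl1 the lowest zinc-treated array lay above the highest untreated one. C6 and C8b differed by 0.08 (adjusted p = 0.828) and 0.15 (adjusted p = 0.53), with intervals of -0.29 to 0.45 and -0.12 to 0.43. F7, which differed by 0.05 between untreated mutants and wild type, read 11.18, 11.05, 11.25 and 11.25 in zinc-treated Atp7b-/- livers, against 11.41, 11.41, 11.27 and 11.53 in untreated ones. Its arrays did not overlap, yet the difference of -0.22 missed the threshold (adjusted p = 0.147). All 6 vitamin K dependent members had negative differences by their brightest probe sets, 0 of them called and 1 lower at an unadjusted p under 0.05 in limma. For F10 the sign depended on the probe set, at -0.12 for the brightest and 0.10 and 0.07 for the others. Of all 18193 genes 8584 had negative differences.

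**Figure D4:**
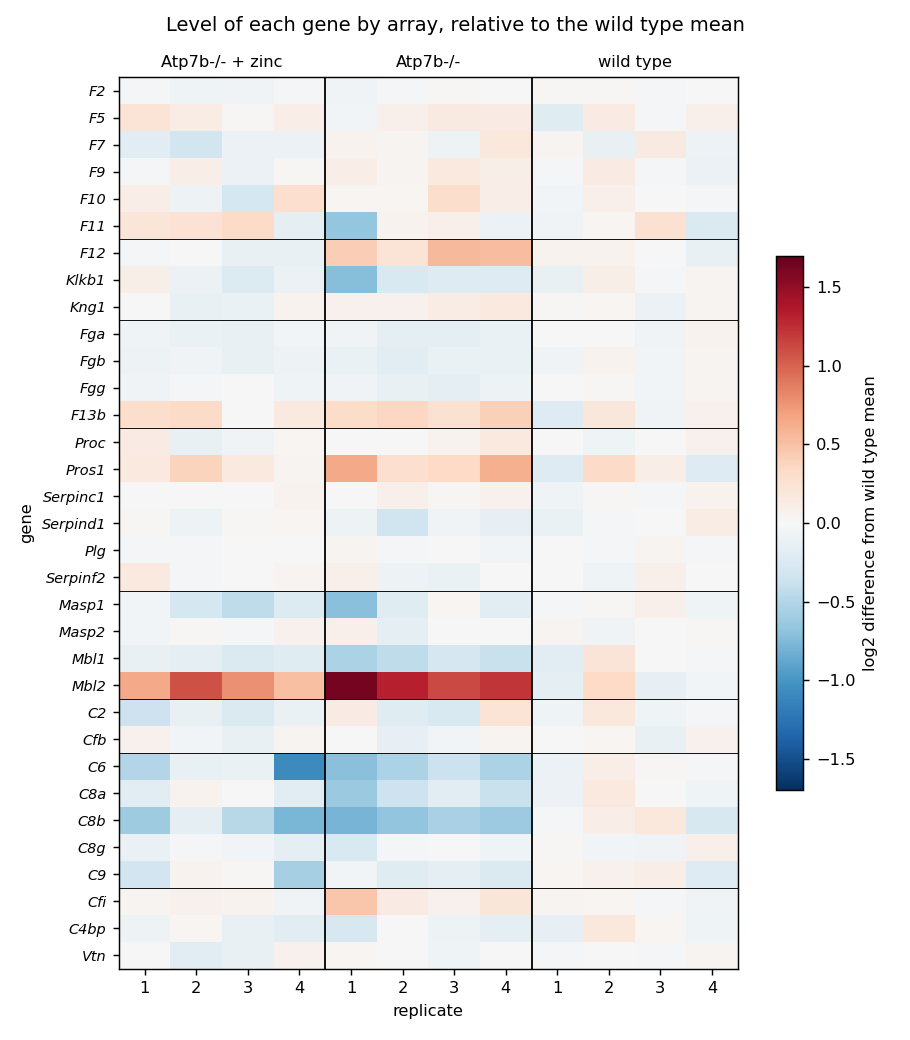
Log2 level of each of the 33 measured genes (rows, grouped by role) on each array (columns, grouped by condition), relative to the mean of wild type, with red above it and blue below. Mbl2 is the one row that is red on all 8 mutant arrays with values over 0.5, and C6 and C8b are blue on all 8. Mbl1 and, more faintly, Fga, Fgb and Fgg are also below the wild type mean on all 8.

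Zinc-treated Atp7b-/- livers were also set against wild type, to see what remained with treatment. Mbl2 stayed higher and C8b stayed lower, while F12, C8a and Klkb1 each differed from wild type by -0.08 and were not called. The 2 calls of 33 (6.06%) stood beside 7.62% of all genes. By direction 1 member was higher, against 4.89% of all genes, and 1 lower, against 2.73%. At an unadjusted p under 0.05 in limma 1 member was higher and 2 lower, where 2072 of all 18193 genes were higher and 1881 lower. The median difference was -0.04 over the members, beside -0.02 over all genes. Of the 9 acute phase genes 1 was called lower and 0 higher in this comparison, with a median of -1.13 that moved with the higher wild type values given above; their part in the members' values was not tested.

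Mbl2 exceeded wild type by 0.75 in zinc-treated livers (SE 0.15; adjusted p = 0.00612), or 1.69-fold, without overlap. The call held when any single array was left out and was lost without both zinc-treated replicates 2 and 3, where the difference was 0.58 (adjusted p = 0.0803). C8b was below wild type by 0.50 (log2 difference -0.50, SE 0.13; adjusted p = 0.0293). It missed the threshold without zinc-treated replicate 1, 3 or 4 or wild type replicate 1, 2 or 3, with differences of -0.51 to -0.41 and adjusted p between 0.056 and 0.0886. Without zinc-treated replicates 2 and 3 it was -0.69 (adjusted p = 0.0129). C6 behaved alike in size, at -0.46 with all arrays (adjusted p = 0.134) and -0.79 without those replicates (adjusted p = 0.0129). The 95% intervals of this comparison for F12 (-0.26 to 0.10), C8a (-0.30 to 0.14) and Klkb1 (-0.33 to 0.17) include 0, and none of them shows that the groups are alike.

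Other genes of the same pathways were taken from lists made by known function. Of 30 listed genes of clotting and fibrinolysis 25 were measured, and 5 (20%) were higher and 4 (16%) lower in untreated Atp7b-/- than in wild type livers, against 14.3% and 10.3% of all genes, with a median of -0.04. Vkorc1, the enzyme that recycles vitamin K for the carboxylation of clotting factors, had log2 levels of 12.95, 12.86, 12.78 and 12.93 in zinc-treated and 12.53, 12.46, 12.49 and 12.57 in untreated Atp7b-/- livers, against 13.11, 13.19, 13.03 and 13.15 in wild type. The 3 groups did not overlap, and the change in untreated mutants was -0.61 (adjusted p = 2.8e-05), with 0.37 between zinc-treated and untreated mutants (adjusted p = 0.00648). Ggcx, the carboxylase that uses that vitamin, was lower by 0.40 in untreated mutants (log2 difference -0.40; adjusted p = 0.0168).

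S100a10, which with Anxa2 forms a surface receptor for plasminogen and its activator, read 11.77, 12.44, 12.62 and 12.34 in zinc-treated and 12.71, 13.11, 13.31 and 13.18 in untreated Atp7b-/- livers, against 11.65, 11.56, 11.78 and 11.31 in wild type. Untreated mutants lay above both other groups, by 1.50 against wild type (adjusted p = 3.52e-05), and zinc-treated mutants lay 0.78 below untreated ones (log2 difference -0.78; adjusted p = 0.0168). That second call was lost without untreated replicate 4 (-0.75; adjusted p = 0.0545). Zinc-treated mutants exceeded wild type by 0.72 (adjusted p = 0.0226), a call lost without zinc-treated replicate 2, 3 or 4 or wild type replicate 2 or 4 (0.61 to 0.71; adjusted p between 0.053 and 0.0701). Without zinc-treated replicates 2 and 3 together it was 0.48 (adjusted p = 0.225), and with the mean of all its probe sets 0.35 (adjusted p = 0.328).

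Anxa2 read 8.33, 8.70, 8.50 and 8.90 in zinc-treated and 10.61, 8.98, 8.61 and 9.70 in untreated Atp7b-/- livers, against 7.88, 7.46, 8.04 and 7.995 in wild type. Both mutant groups lay above wild type, and untreated replicate 1 was highest. The difference of untreated mutants from wild type was 1.63 (adjusted p = 0.00263), and 1.25 without that replicate (adjusted p = 0.00171). It was -0.03 (adjusted p = 0.849) when probe sets with names ending in _a_at, _s_at or _x_at were left out. Such names mark probe sets that may read several related transcripts.

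Habp2, a plasma protease that acts on factor VII, read 10.06, 9.79, 9.75 and 9.98 in zinc-treated and 9.45, 9.43, 9.56 and 9.50 in untreated Atp7b-/- livers, against 9.93, 9.88, 9.99 and 10.06 in wild type. Untreated mutants lay below both other groups, which overlapped. Habp2 was lower by 0.48 in untreated mutants than in wild type (log2 difference -0.48; adjusted p = 0.000855) and higher by 0.41 with zinc than without (adjusted p = 0.00917), and neither call held with the mean of its probe sets.

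Serpina5, a dim gene for the inhibitor of protein C, read 4.53, 4.54, 4.62 and 4.34 in zinc-treated and 6.59, 5.18, 5.15 and 4.96 in untreated Atp7b-/- livers, against 4.44, 4.12, 4.11 and 4.36 in wild type. Untreated mutants lay above both other groups, with replicate 1 far above the rest. Serpina5 fell by 0.97 with zinc (adjusted p = 0.0482), or by 0.59 without that replicate (log2 difference -0.59; adjusted p = 0.00627), a call lost under 15 of 23 settings, among them the omission of any zinc-treated or any wild type array or of untreated replicate 2 (adjusted p up to 0.108). F3, tissue factor, was higher by 0.66 in untreated mutants, Mcfd2 by 0.27 and Serpina5 by 1.22, and A2m was lower by 0.38 (log2 difference -0.38). A2m was dim too, with a mean log2 level of 4.55 over all arrays, and F3 had 5.74, beside array medians of 5.63 to 5.71. With zinc 2 genes of the list (8%) were higher and 2 (8%) lower than without, against 1.7% and 4.84% of all genes. In zinc-treated livers against wild type 1 (4%) was higher and 0 lower, against 4.89% and 2.73% of all genes. At an unadjusted p under 0.05 in limma 3 of the 25 were higher and 2 lower, beside 2072 and 1881 of all 18193 genes.

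Of 41 listed complement genes 30 were measured, and 4 (13.3%) were higher and 7 (23.3%) lower in untreated Atp7b-/- than in wild type livers, against 14.3% and 10.3% of all genes, with a median of -0.14. No test was made on these shares. C1s1, a protease of the classical pathway made by hepatocytes, had log2 levels of 12.10, 12.16, 12.14 and 12.08 in zinc-treated and 12.43, 12.51, 12.36 and 12.51 in untreated Atp7b-/- livers, against 11.90, 12.19, 12.01 and 12.13 in wild type. Untreated mutants lay above both other groups, by 0.39 against wild type (adjusted p = 0.00232), and zinc-treated mutants differed from untreated ones by -0.33 (adjusted p = 0.0214). The second call was lost without zinc-treated replicate 1 or 4 or untreated replicate 2 or 4 (-0.32 to -0.31; adjusted p between 0.0543 and 0.0689), and without zinc-treated replicates 2 and 3 (-0.36; adjusted p = 0.0803). Serping1, the inhibitor of C1s and of contact proteases, was higher by 0.25 and Hc, the gene of C5, by 0.26 in untreated mutants.

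Cr1l, a membrane regulator of complement, read 10.11, 10.13, 10.13 and 10.09 in zinc-treated and 10.33, 10.09, 10.16 and 10.30 in untreated Atp7b-/- livers, against 9.87, 9.85, 10.05 and 9.94 in wild type. All 8 mutant arrays lay above wild type, and the untreated mutants were higher by 0.29 (adjusted p = 0.0122). Colec12, a membrane collectin, read 7.34, 7.85, 6.99 and 6.42 in zinc-treated and 5.65, 6.48, 7.21 and 5.70 in untreated Atp7b-/- livers, against 7.65, 8.51, 7.65 and 8.31 in wild type. Untreated mutants lay below wild type, with a log2 difference of -1.77 (adjusted p = 0.00285), and zinc-treated ones overlapped both.

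C3ar1, the receptor of C3a, read 5.72, 5.81, 5.99 and 5.98 in zinc-treated and 5.87, 5.63, 5.54 and 5.48 in untreated Atp7b-/- livers, against 6.11, 6.22, 5.95 and 5.86 in wild type. The groups overlapped, and untreated mutants differed from wild type by -0.40 (adjusted p = 0.0147), or -0.35 without untreated replicate 4 (adjusted p = 0.0506). Cfhr3, a relative of factor H, read 7.15, 6.74, 6.63 and 6.87 in zinc-treated and 5.89, 6.31, 6.44 and 6.05 in untreated Atp7b-/- livers, against 6.19, 6.61, 6.38 and 6.45 in wild type. Its zinc-treated arrays lay above both other groups, and exceeded the untreated mutants by 0.68 (adjusted p = 0.0109). With zinc 1 gene of the list (3.33%) was higher and 1 (3.33%) lower than without, against 1.7% and 4.84% of all genes. In zinc-treated livers against wild type 0 complement genes of the list were called, beside 7.62% of all genes, with 4 higher and 9 lower at an unadjusted p under 0.05 in limma.

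The other complement genes that fell in untreated mutants are known to be expressed by macrophages: C1qa (-0.67), C1qc (-0.75), properdin (Cfp, -0.62), Vsig4 (-0.74) and C5ar1 (-0.25). C5ar1 was dim, with a mean log2 level of 4.99 over all arrays. Of 6 macrophage markers, 1 of which is Vsig4 itself, 5 were called lower in untreated mutants than in wild type (10.3% of all genes were). Their mean was 7.57 to 7.86 in zinc-treated and 7.32 to 8.40 in untreated Atp7b-/- arrays, against 7.81 to 8.72 in wild type, and their part in the complement values was not tested. None of the 33 members is in that marker list. Markers of stellate cells gave 0 calls of 6 in this comparison (also 0 at an unadjusted p under 0.05 in limma). Platelet markers gave 2 of 5 lower and erythroid markers 1 of 2 higher, against 10.3% lower and 14.3% higher of all genes. The pancreatic markers gave 0 calls of 8 in any comparison. At an unadjusted p under 0.05 in limma 5 of them were higher in zinc-treated than in untreated mutants, beside 1609 of all 18193 genes.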

How the data were processed

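Whole-liver RNA was measured on 12 Affymetrix GeneChip Mouse 430 2.0 arrays in 3 groups. The deposited values are log2 intensities per probe set, which the authors had already processed; no label names their background correction or normalization. Array medians lay between 5.63 and 5.71, so the arrays had been put on a common scale. An array has no read depth, and having 4 arrays per group is what limits precision.

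Of 45101 probe sets, 64 controls were left out, 34945 were annotated with 1 gene, 932 with several and 9160 with none. The brightest of the 34945 was kept for each of 18193 genes, with no filter on low values. R 4.3.3 and limma 3.58.1 fitted the 3 group means to all 12 arrays and compared them with lmFit and eBayes, and p-values were adjusted by Benjamini-Hochberg over all genes. The procedure was tested on simulated data. Replicates 1 to 4 carry no pairing in the labels. Alternatives covered scaling, the choice of probe set, array weights, a test that the change exceeds 0.5 in size, a replicate block and the omission of arrays.

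Members, lists and rules were chosen with earlier results of these data known. Array values are given for the called members with the largest changes, the members that zinc moved most the opposite way, the 3 brightest members and, per list of other pathway genes, the 4 called genes with the smallest adjusted p in each comparison. Other array values (Masp2, Cfi, F2, F7, F11, Masp1 and C9) and other called genes were added after their values were seen. Coordinates and promoters are those of RefSeq for GRCm38.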

Additional observations from a re-analysis of the deposited data

Results flagged for a closer look

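Klkb1 in untreated Atp7b-/- replicate 1 lay far from its group, at a log2 level of 11.66 where the other 3 arrays were 12.12 to 12.17. Fgb in untreated Atp7b-/- replicate 2 lay low, at 13.87 where the other 3 were 13.94 to 13.95. These were the 2 flags among 99 groups of 4 arrays checked, fewer than the 1 in 20 that chance gives. The Klkb1 call against wild type was lost without that array, and also without any of several others given above. Fgb was not called in any comparison.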

How the results depend on the processing

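In untreated Atp7b-/- against wild type, Mbl2 was called under each of 24 settings, F12, C8a and Mbl1 under 23 and C8b under 22 of 23. Each loss was in limma's test that a change exceeds 0.5 in size, which an estimate above 0.5 can also fail. F13b and Pros1 kept their calls under 19 of 24, C6 under 15 and Klkb1 under 10. In the test against 0.5, 1 member was higher and 0 lower in this comparison, and 0 were lower with zinc than without. In zinc-treated against wild type it gave 0 higher and 0 lower. Array weights left 3 members lower (C8a, C8b and Mbl1) and gave a median of -0.030 between zinc-treated and untreated mutants. Quantile normalization moved the median against wild type to -0.080. Masp2 turned to 0.206 with the mean of its probe sets and to 0.433 without probe sets with names ending in _a_at, _s_at or _x_at. Under both settings it joined Mbl2 as the 2 members higher in zinc-treated than wild type livers. Without those probe sets Anxa2 turned to -0.029. That setting measured 30 members and left out C8b, C8g and Vtn, so 0 members were lower in zinc-treated than wild type livers because C8b, the one called, was not in it, and the median was -0.028. Zinc-treated against wild type also gave 0 lower when fitted with those 2 groups alone. Without zinc-treated replicates 2 and 3 it gave 0 higher and 2 lower (C6 and C8b) with a median of -0.006. With untreated replicate 1 left out too, an alternative chosen after seeing the data, it gave 1 higher (Mbl2), 2 lower and -0.006. The cause was not tested for the others.

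Leaving out 1 array at a time gave 2 to 5 higher, 3 to 5 lower and a median of -0.039 to -0.005 in untreated mutants against wild type. It gave 0 higher, 1 to 2 lower and -0.014 to 0.017 with zinc against without, and 1 higher, 0 to 1 lower and -0.061 to -0.030 in zinc-treated against wild type. Same-numbered arrays of 2 groups deviated together with r of -0.13 to 0.24. Differently numbered arrays were not compared, so these values cannot tell whether the numbers pair samples. With the replicate number as a block, C8a became the 1 member higher with zinc (adjusted p = 0.0476) and Klkb1 was no longer called against wild type (adjusted p = 0.0572).

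Over all genes the minimum change left 555, 77 and 152 calls in the 3 comparisons in the order above, against 4480, 1190 and 1386. Array weights gave 1861 between zinc-treated and untreated mutants, and leaving out zinc-treated replicates 2 and 3 gave 614 there and 699 against wild type, or 598 and 881 with untreated replicate 1 left out too. Without untreated replicate 4 there were 689 between zinc-treated and untreated mutants. Quantile normalization gave 2142 higher and 2251 lower in untreated mutants against wild type, where the deposited scale gave 2608 and 1872, and 432 and 654 with zinc against without, where it gave 309 and 881.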
